A study of Mus musculus with 9 samples.

Results

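The 10 genes described here encode the sialyltransferases and sialidases that were listed for this study by symbol: St3gal1, St3gal2, St3gal3, St3gal4, St3gal5, St3gal6, St6gal1, St8sia4, Neu1 and Neu3. All 10 were found by their mouse Ensembl identifiers among the 22001 genes of the deposited count table, and all 10 passed the filter on low counts that left 11469 genes for testing. The cells were bone marrow-derived macrophages of the C57BL6 strain, which are macrophages grown from mouse marrow, and bulk RNA was sequenced from 9 libraries taken after 6 h. By their labels, 3 libraries (A2, B2 and C2) received PBS and no other agent, 3 (D1, D2 and D3) received 100 µg/ml PAM3CSK4, and 3 (A2plus, B2plus and C2plus) received 100 µg/ml PAM3CSK4 together with 100 µl/ml 3SL. Pam3CSK4 is a lipopeptide ligand of Toll-like receptors on macrophages. The sugar 3SL is 3'-sialyllactose, a sialylated oligosaccharide of milk. The dose of 3SL is given only as a volume. The titles and treatment tag of those libraries read Pamc4 and CSL, and their column names read Pamc4w3SL, where the stated doses name PAM3CSK4 and 3SL. Groups are named below by their labels only, as untreated-labelled, Pam3CSK4-labelled or 3SL-labelled libraries.

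Sialic acids are acidic sugars at the outer ends of glycoproteins and glycolipids. Sialyltransferases of the Golgi add them: the ST3GAL enzymes link sialic acid to the third carbon of galactose, ST6GAL1 links it to the sixth carbon of galactose on N-glycans, and ST8SIA4 builds chains of sialic acid on other sialic acids. Sialidases (the NEU enzymes) take sialic acid off again. On macrophages these sugars mask or form ligands for lectins of the Siglec, galectin and selectin families, and 3SL itself carries the linkage that the ST3GAL enzymes make.

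The labels and the inflammatory genes of the libraries went in opposite directions. Tnf, a cytokine gene that Pam3CSK4 induces in macrophages, was at 1704 ± 46.0 depth-scaled counts (CPM; mean ± SD, n = 3) in the untreated-labelled libraries, at 18.4 ± 0.67 CPM in the Pam3CSK4-labelled and at 1267 ± 58.2 CPM in the 3SL-labelled. Il1b, likewise a cytokine gene of activated macrophages, was at 10160 ± 457, 6.23 ± 1.68 and 8136 ± 565 CPM (both genes were chosen with their values known). Every direction given below rests on the labels as deposited. The Pam3CSK4-labelled libraries are also the only ones coded D, so the code and the group cannot be told apart, and nothing in the labels ties the 9 libraries to separate cultures or animals, so each p-value reflects library-to-library spread that may be technical. Total counts ran from 7472482 (A2plus) to 43980309 (B2), so that 3 counts in a library equalled between 0.0746 and 0.422 CPM. All 7 macrophage markers listed (Adgre1, Csf1r, Cd68, Itgam, Mertk, Lyz2 and Fcgr1) were tested, and their summed level was 21750 to 22220 CPM in the untreated-labelled, 15940 to 16380 in the Pam3CSK4-labelled and 21150 to 21710 in the 3SL-labelled libraries. Of 6 lymphocyte markers 5 were under 1 CPM in every library, as were 2 of 5 dendritic cell markers, 3 of 4 erythroid and mast cell markers, 1 of 6 neutrophil markers (Ly6g) and none of 4 stromal and endothelial markers. The summed neutrophil markers ran over 456 to 489, 266 to 339 and 369 to 407 CPM in the same order of groups, and the stromal and endothelial markers over 14.7 to 15.7, 4.31 to 4.72 and 10.5 to 14.4 CPM. The dendritic cell markers summed to 4.14 to 5.07, 0.96 to 2.75 and 2.34 to 3.23 CPM, the erythroid and mast cell markers to 2.61 to 3.61, 4.16 to 4.51 and 1.76 to 3.51 CPM, and the lymphocyte markers to 9.76 to 11.4, 10.3 to 13.1 and 9.05 to 11.2 CPM. The macrophage, neutrophil, stromal and endothelial sums were lowest in the Pam3CSK4-labelled libraries, where St3gal1, St3gal3 and St3gal4 were lowest too. The erythroid and mast cell sum was highest in those libraries, as was St6gal1. Single markers of these lists went both ways: in the Pam3CSK4-labelled against the untreated-labelled libraries 5 macrophage markers were called lower, with Lyz2 from 14160 ± 233 to 11380 ± 216 CPM and Adgre1 from 4300 ± 89.1 to 1296 ± 29.5, and 2 higher, Cd68 from 1026 ± 12.2 to 1413 ± 25.9 and Mertk from 48.4 ± 3.18 to 96.2 ± 6.17. Of the neutrophil markers, 3 were called lower (S100a8, S100a9 and Camp) and 2 higher, Elane from 5.82 ± 0.389 to 12.6 ± 1.43 CPM and Mpo from 18.9 ± 0.789 to 40.2 ± 1.96. Of the stromal and endothelial markers, Pdgfrb and Pecam1 were called lower and none higher. The part of these markers in the results was not tested. In bulk RNA, fewer cells of a type and less RNA per cell cannot be told apart.

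RefSeq promoter windows of build GRCm38.p6, 250 bases before to 50 after a start site, were matched for 8 of the 10 genes (11 windows of 300 bases), all but St3gal1 and St3gal2. Windows are shown for St3gal3, which fell most among the genes, for the 3 annotated starts of St6gal1, which moved the other way and whose counts pool all its starts, and for Neu1, the gene in which motifs of different kinds were found in a single window. Only the 250 bases upstream of each start are printed, 5′ to 3′ on the strand of the gene, in lower case with matches to the searched motifs in capitals.
St3gal3, chr4:118134947-118135196, minus strand: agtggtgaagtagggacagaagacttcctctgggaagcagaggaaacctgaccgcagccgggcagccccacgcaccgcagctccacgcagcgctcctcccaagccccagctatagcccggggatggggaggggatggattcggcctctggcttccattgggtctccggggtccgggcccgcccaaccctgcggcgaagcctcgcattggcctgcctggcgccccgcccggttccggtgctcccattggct
St6gal1 start 1, chr16:23224490-23224739, plus strand: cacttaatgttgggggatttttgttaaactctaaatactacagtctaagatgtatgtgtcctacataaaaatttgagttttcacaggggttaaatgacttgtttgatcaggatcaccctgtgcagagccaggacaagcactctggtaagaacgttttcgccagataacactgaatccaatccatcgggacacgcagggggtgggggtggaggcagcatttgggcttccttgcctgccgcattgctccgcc
St6gal1 start 2, chr16:23225771-23226020, plus strand: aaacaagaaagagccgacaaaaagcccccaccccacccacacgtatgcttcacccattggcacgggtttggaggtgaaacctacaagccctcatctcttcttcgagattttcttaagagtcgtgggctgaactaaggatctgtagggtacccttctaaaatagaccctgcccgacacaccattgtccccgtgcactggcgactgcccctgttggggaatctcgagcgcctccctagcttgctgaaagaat
St6gal1 start 3, chr16:23290220-23290469, plus strand: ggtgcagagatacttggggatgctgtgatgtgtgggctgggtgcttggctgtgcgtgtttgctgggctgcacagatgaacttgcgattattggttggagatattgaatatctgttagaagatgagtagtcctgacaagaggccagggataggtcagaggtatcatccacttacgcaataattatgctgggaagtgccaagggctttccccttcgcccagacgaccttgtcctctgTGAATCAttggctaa
Neu1, chr17:34931003-34931252, plus strand: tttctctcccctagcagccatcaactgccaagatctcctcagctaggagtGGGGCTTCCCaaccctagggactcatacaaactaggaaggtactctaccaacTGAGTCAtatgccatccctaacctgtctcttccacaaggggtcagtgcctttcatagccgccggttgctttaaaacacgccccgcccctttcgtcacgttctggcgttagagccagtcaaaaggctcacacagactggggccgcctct

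The motifs searched on both strands of each window were the kappa-B motif, TGANTCA (the AP-1 motif), CACGTG (the E-box) and GAAANNGAA (an interferon-response motif). Over all 32851 mouse windows, 4.51% held the kappa-B motif, 7.81% TGANTCA, 7.15% CACGTG and 8.56% GAAANNGAA. The window of the third St6gal1 start held TGAATCA at positions -15 to -9, counted from the start site. The Neu1 window held the kappa-B letters GGGGCTTCCC at -200 to -191 and TGAGTCA at -148 to -142, which do not overlap. St3gal6 had a kappa-B match in its second window, and the St3gal3, St3gal4, St3gal5, St8sia4 and Neu3 windows held none of these letters. A match describes the letters and is neither a bound site nor a cause. The windows differed in base composition: St3gal3 had 70% G and C, above 90.4% of all windows, and the 3 St6gal1 windows had 48, 50.7 and 49.7%, against a median of 52.7% over all windows.

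Between the Pam3CSK4-labelled and untreated-labelled libraries the 10 genes moved both ways, and not all of the St3gal genes fell. St3gal1, St3gal3 and St3gal4 fell by between 2.46-fold and 7.3-fold, St6gal1 rose 10.2-fold, and the other genes changed by less than 2-fold or were not called. Of the 10 genes, the quasi-likelihood test of edgeR, adjusted over all 11469 genes by the Benjamini-Hochberg method, called 4 higher, 4 lower and 2 neither. Over all tested genes 39% were called higher and 35.9% lower, so the counts of the 10 genes were near the background. Changes of at least 2-fold were called for 4 of the 10 genes and for 24% of all tested genes. The 2 groups did not overlap for 7 of the 10 genes and for 76% of all tested genes. The median log2 change was -0.06 over the 10 genes and 0.03 over all tested genes. The plot of CPM by library shows the levels, and the plot of log2 changes the tests.

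**Figure D1:**
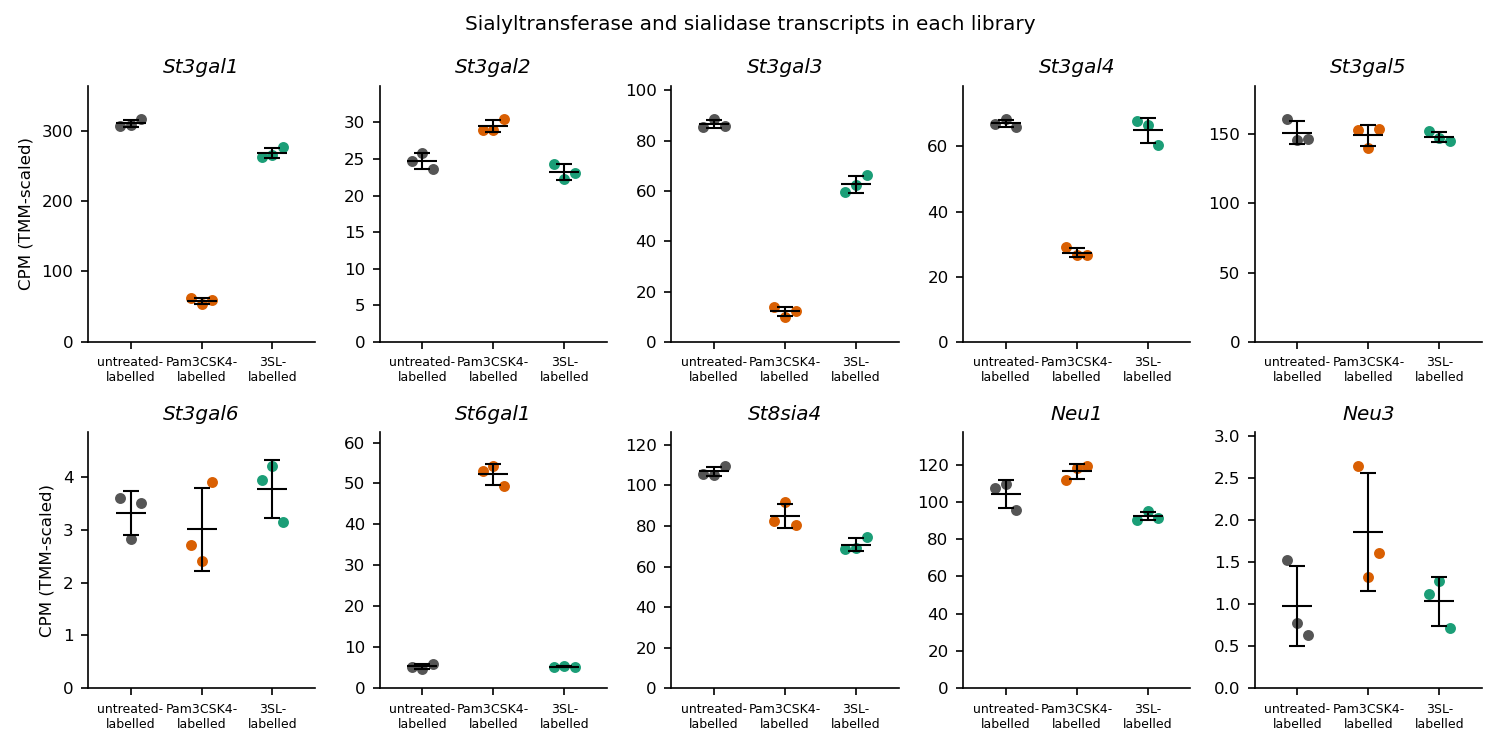
CPM after TMM scaling (vertical axis, each from 0) of each of the 10 genes in the 3 groups of libraries; points are libraries, and horizontal lines and bars give the mean and SD (n = 3). St3gal1, St3gal3 and St3gal4 are lowest in the Pam3CSK4-labelled libraries, and St6gal1 is at 49.3 to 54.3 CPM there and at 4.77 to 6.04 CPM in the other 6 libraries.

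St3gal1 (ENSMUSG00000013846; GRCm38 chr15:67102875-67176830, minus strand) encodes the enzyme that caps core 1 O-glycans with sialic acid. Its level was 306, 308.6 and 316 CPM in A2, B2 and C2, then 62.2, 53.4 and 59.7 CPM in D1, D2 and D3, and 263, 265 and 277 CPM in A2plus, B2plus and C2plus. The Pam3CSK4-labelled libraries were all low, the 3SL-labelled lay between, and none of the 3 groups overlapped. The log2 change was -2.41 ± 0.0458 (SE), a 5.33-fold fall (edgeR adjusted p = 3.77e-26). St3gal2 (ENSMUSG00000031749; chr8:110919922-110972480, plus strand), whose enzyme sialylates core 1 O-glycans and gangliosides, was at 24.7, 25.8 and 23.7 CPM in the untreated-labelled, 29.0, 29.0 and 30.4 in the Pam3CSK4-labelled and 24.3, 22.2 and 23.1 in the 3SL-labelled libraries. The Pam3CSK4-labelled libraries were above all others, by a small margin, with a log2 change of 0.24 ± 0.0673 against the untreated-labelled (edgeR adjusted p = 0.00263).

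St3gal3 (ENSMUSG00000028538; chr4:117932154-118134914, minus strand) makes an enzyme that caps the galactose of N-glycans and other lactosamine chains. It was measured at 85.5, 88.5 and 86 CPM in the untreated-labelled libraries, 13.9, 9.99 and 12.3 CPM in the Pam3CSK4-labelled and 59.5, 62.3 and 66.2 CPM in the 3SL-labelled. As for St3gal1, the order was untreated-labelled, 3SL-labelled, Pam3CSK4-labelled, with no overlap between any pair of groups. Its log2 change of -2.87 ± 0.0754, a 7.3-fold fall, was the largest fall among the 10 genes (edgeR adjusted p = 7.53e-23). St3gal4 (ENSMUSG00000032038; chr9:35046576-35119268, minus strand), whose enzyme contributes to selectin ligands on leukocytes, was at 66.8, 68.3 and 66 CPM, then 29.0, 26.7 and 26.5 CPM, then 67.7, 66.6 and 60.4 CPM in the same order of groups. Here the untreated-labelled and 3SL-labelled libraries overlapped and the Pam3CSK4-labelled stood apart below them. The log2 change was -1.3 ± 0.0591, a 2.46-fold fall (edgeR adjusted p = 2.81e-17). St3gal4 shares 412 exon bases with 4930581F22Rik on the opposite strand, and the strand setting of the counting is not given in the sources used here.

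St3gal5 (ENSMUSG00000056091; chr6:72097592-72154571, plus strand) encodes GM3 synthase, which makes the first sialylated ganglioside from lactosylceramide. It was at 160.8, 146 and 147 CPM in the untreated-labelled, 153, 140.1 and 154 in the Pam3CSK4-labelled and 152, 147 and 145 in the 3SL-labelled libraries. All 3 groups overlapped. The log2 change was -0.02 (95% interval -0.11 to 0.07; edgeR adjusted p = 0.691) with TMM scaling, and 0.29 (adjusted p = 1.76e-06) when the counts were scaled by library size alone, which shifts the median of all genes by 0.31. St3gal6 (ENSMUSG00000022747; chr16:58468125-58524243, minus strand), whose enzyme also acts on lactosamine chains, was near 3 CPM: 3.61, 2.83 and 3.5 in the untreated-labelled, 2.72, 2.41 and 3.9 in the Pam3CSK4-labelled and 3.94, 4.21 and 3.15 in the 3SL-labelled. Its groups overlapped, with a log2 change of -0.10 (95% interval -0.53 to 0.32; edgeR adjusted p = 0.665). Its value is uncertain, because 1603 of its exon bases are shared with Dcbld2 on the opposite strand, and Dcbld2 itself went from 76.3 ± 3.65 CPM in the untreated-labelled to 9.04 ± 0.634 in the Pam3CSK4-labelled and 58.5 ± 2.97 in the 3SL-labelled libraries.

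St6gal1 (ENSMUSG00000022885; chr16:23224740-23360350, plus strand) encodes the enzyme that links sialic acid to the sixth carbon of galactose, a linkage that Siglecs such as CD22 bind. Its 3 start windows are printed above. The gene was at 5.32, 4.77 and 6.04 CPM in the untreated-labelled libraries, 53.0, 54.3 and 49.3 CPM in the Pam3CSK4-labelled and 5.2, 5.39 and 5.29 CPM in the 3SL-labelled. The 3 Pam3CSK4-labelled libraries were high, and the other 6 overlapped. The log2 change was 3.35 ± 0.086, a 10.2-fold rise (edgeR adjusted p = 4.65e-23). St6gal1 shares 200 exon bases with BC106179 on the opposite strand, whose level was at most 0.48 CPM in any library. St8sia4 (ENSMUSG00000040710; chr1:95587682-95667571, minus strand), the polysialyltransferase of immune cells, was at 106, 105 and 109.6 CPM, then 82.3, 91.7 and 80.4 CPM, then 68.7, 69.1 and 74.5 CPM. The 3 groups did not overlap, and here the 3SL-labelled libraries, not the Pam3CSK4-labelled, were lowest. Relative to A2, B2 and C2, the Pam3CSK4-labelled libraries changed by a log2 value of -0.32 ± 0.0483 (edgeR adjusted p = 9.57e-07), a call that was lost with scaling by library size alone (-0.01; adjusted p = 0.825).

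Neu1 (ENSMUSG00000007038; chr17:34931253-34935953, plus strand) encodes the lysosomal sialidase. It was at 107, 109.7 and 95.8 CPM in the untreated-labelled, 112, 118 and 119 in the Pam3CSK4-labelled and 90.5, 95.1 and 91.6 in the 3SL-labelled libraries. The ranges of the 3 groups were close but did not overlap, with C2 lowest among the untreated-labelled. The log2 change of 0.15 ± 0.0465 was called (edgeR adjusted p = 0.00604), and without C2 it was 0.10 and not called (adjusted p = 0.0514). Neu3 (ENSMUSG00000035239; chr7:99811439-99828417, minus strand), whose sialidase acts on gangliosides at the plasma membrane, was near the detection floor, with 1.52, 0.77 and 0.636 CPM, then 2.64, 1.32 and 1.60 CPM, then 1.12, 1.27 and 0.712 CPM. Its counts were 6 to 33 per library, and the untreated-labelled and Pam3CSK4-labelled ranges overlapped. The log2 change was 0.92 ± 0.334 (edgeR adjusted p = 0.0151), and it was not called without B2 (0.62; adjusted p = 0.165) or without D1 (0.60; adjusted p = 0.151).

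**Figure D2:**
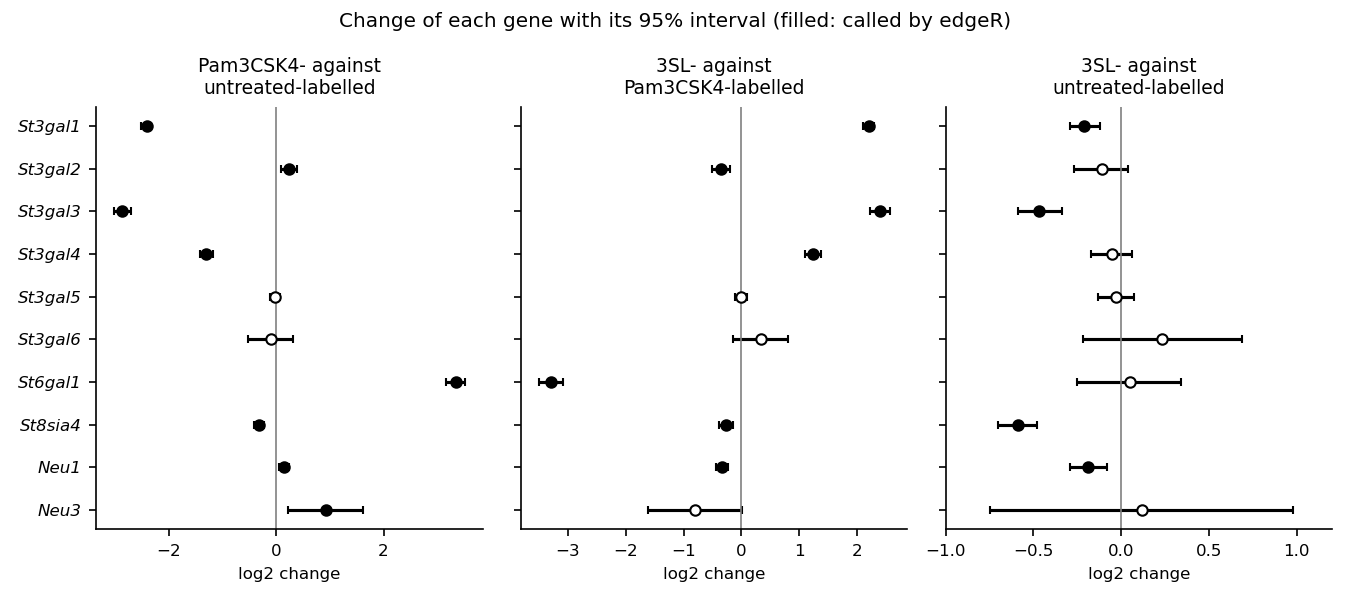
Log2 change (horizontal axis) of each gene in 3 comparisons, from the edgeR fit over 9 libraries; bars are 95% intervals, and filled points passed an adjusted p of 0.05. The first and middle panels share the Pam3CSK4-labelled libraries and mirror each other for St3gal1, St3gal3, St3gal4 and St6gal1, while the right-hand panel, on a narrower axis, has its lowest points at St8sia4 (-0.59) and St3gal3 (-0.47).

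The 3SL-labelled libraries were next set against the Pam3CSK4-labelled, which by their stated doses differ by 3SL. Their column names also differ in the agent, reading Pamc4w3SL and Pamc3. As Tnf and Il1b went against the labels and only the Pam3CSK4-labelled libraries are coded D, a difference cannot be assigned to 3SL. St3gal1 was 4.62-fold higher, St3gal3 5.28-fold higher and St3gal4 2.37-fold higher, and St6gal1 was 9.85-fold lower. This comparison shares the Pam3CSK4-labelled libraries with the one above, so the opposite signs are not independent of it. Of the 10 genes 3 were called higher, against 34.7% of all tested genes, and 4 lower, against 36.8%. At least 2-fold changes were called for 4 of the 10 and for 23% of all tested genes, and the groups did not overlap for 8 of the 10 and for 73.1% of all tested genes. The median log2 change was -0.14 over the 10 genes and -0.02 over all tested genes.

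The log2 change was 2.21 ± 0.0473 for St3gal1 (edgeR adjusted p = 7.8e-25). For St3gal3 it was 2.40 ± 0.083 (adjusted p = 5.75e-20). For St3gal4 it was 1.24 ± 0.0638 (adjusted p = 5.18e-16). These 3 St3gal genes were each higher in all 3 of the 3SL-labelled libraries than in any Pam3CSK4-labelled one. St6gal1 changed by -3.30 ± 0.102 (adjusted p = 4.32e-21), and each 3SL-labelled library was below every Pam3CSK4-labelled one. St3gal2, St8sia4 and Neu1 were lower by small amounts, with log2 changes of -0.35 (adjusted p = 0.000226), -0.26 (adjusted p = 0.000114) and -0.33 (adjusted p = 1.55e-06). St3gal5 was at -0.01 (95% interval -0.11 to 0.09; adjusted p = 0.857), and at -0.28 (adjusted p = 6.92e-06) with scaling by library size alone. St3gal6, at 0.34 (95% interval -0.14 to 0.81; adjusted p = 0.192), was not called. Neu3 was at -0.80 (95% interval -1.61 to 0.01; adjusted p = 0.0701), and it was called without D2 (-1.03; adjusted p = 0.0327) and with scaling by library size alone (-1.08; adjusted p = 0.0148).

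Between the 3SL-labelled and untreated-labelled libraries, which share the letters A, B and C, the differences were smaller. St8sia4, St3gal3, St3gal1 and Neu1 were lower in the 3SL-labelled libraries, by 1.14-fold to 1.5-fold, and none of the 10 genes was called higher. The 4 genes called lower compare with 5.11% of all tested genes called lower and 3.83% called higher. No gene of the 10 was called with a change of at least 2-fold, against 0.174% of all tested genes. The groups did not overlap for 4 of the 10 genes, the same 4 that were called, and for 24% of all tested genes. The median log2 change was -0.08 over the 10 genes and 0 over all tested genes.

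St8sia4, the polysialyltransferase gene, had a log2 change of -0.59 ± 0.0527 (edgeR adjusted p = 7.92e-09), a 1.5-fold difference between 106.9 ± 2.42 CPM and 70.8 ± 3.23 CPM. St3gal3 followed with -0.47 ± 0.0621 (adjusted p = 6.96e-06) and St3gal1 with -0.21 ± 0.0408 (adjusted p = 0.000919). These 3 calls held under all 16 alternatives of this comparison. Neu1, at -0.19 ± 0.0503 (adjusted p = 0.0169), was not called in 6 of the 16, among them without A2 (adjusted p = 0.0749), B2 (0.161), A2plus (0.0775) or C2plus (0.0503). The other 6 genes were not called. Their log2 changes were -0.11 for St3gal2 (adjusted p = 0.432), -0.05 for St3gal4 (0.64), -0.03 for St3gal5 (0.769), 0.23 for St3gal6 (0.597), 0.05 for St6gal1 (0.899) and 0.12 for Neu3 (0.914). The intervals differed in width: -0.13 to 0.07 for St3gal5, -0.25 to 0.34 for St6gal1 and -0.75 to 0.98 for Neu3, so that only large differences of Neu3 were detectable at this depth.

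To compare levels between genes, CPM was divided by the merged exon length of each gene in kilobases. On this scale St3gal5 ranked first of the 10 in every group, at 57.7 ± 3.19 CPM per kb in the untreated-labelled, 57 ± 3.0 in the Pam3CSK4-labelled and 56.5 ± 1.38 in the 3SL-labelled libraries. In the untreated-labelled libraries it was followed by St3gal1 (45.3 ± 0.758), St3gal3 (31.3 ± 0.574), Neu1 (27.9 ± 2.0) and St3gal4 (22.9 ± 0.404). St8sia4 (5.32 ± 0.12), St3gal2 (4.9 ± 0.213) and St6gal1 (1.09 ± 0.13) came next, and St3gal6 (0.537 ± 0.0681) and Neu3 (0.292 ± 0.143) were lowest. In the Pam3CSK4-labelled libraries Neu1 (31.2 ± 1.08) was second with St6gal1 (10.6 ± 0.53) next. St3gal4 (9.37 ± 0.467) and St3gal1 (8.53 ± 0.661) had overlapping ranges there, though St3gal4 was higher within each of D1, D2 and D3. Ranges of St3gal3 (4.36 ± 0.714) and St8sia4 (4.22 ± 0.3) also overlapped, as did those of Neu3 (0.555 ± 0.208) and St3gal6 (0.488 ± 0.127). St3gal2 was at 5.84 ± 0.165. In the 3SL-labelled libraries the order was St3gal5, St3gal1 (39.1 ± 1.11), Neu1 (24.7 ± 0.638), St3gal3 (22.6 ± 1.22) and St3gal4 (22.2 ± 1.35), and St3gal3 and St3gal4 overlapped. Below them were St3gal2 (4.6 ± 0.208), St8sia4 (3.52 ± 0.161), St6gal1 (1.08 ± 0.0188), St3gal6 (0.61 ± 0.089) and Neu3 (0.31 ± 0.087). The order depends on the length used: with the longest coding transcript, Neu1 (42.1 ± 3.01) stood above St3gal3 (34 ± 0.623) in the untreated-labelled libraries, and St8sia4, whose merged exons span 20091 bases and whose longest coding transcript 10027, rose to 10.7 ± 0.241. In the Pam3CSK4-labelled libraries that length put St3gal4 (13.1 ± 0.652) above St6gal1 (11.6 ± 0.578).

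The 6 St3gal genes summed to 163 ± 2.3 CPM per kb in the untreated-labelled libraries, 85.6 ± 4.68 in the Pam3CSK4-labelled and 146 ± 0.734 in the 3SL-labelled. For every 100 CPM per kb of these transcripts there were 0.655, 0.6 and 0.763 of St6gal1 in A2, B2 and C2, then 12.2, 13.8 and 11.4 in D1, D2 and D3, and 0.722, 0.755 and 0.739 in A2plus, B2plus and C2plus. The Pam3CSK4-labelled libraries were high and the other 6 overlapped, with means of 0.673 ± 0.083, 12.5 ± 1.2 and 0.739 ± 0.0165. With the longest coding transcript as length the means were 0.633, 12.0 and 0.694. Among the transcripts of the 6 St3gal genes and St6gal1, St3gal5 made up 35.2% in the untreated-labelled, 59.2% in the Pam3CSK4-labelled and 38.5% in the 3SL-labelled libraries. The share of St3gal1 was 27.7, 8.86 and 26.7%, and that of St3gal3 was 19.1, 4.52 and 15.4%. The larger share of St3gal5 in the Pam3CSK4-labelled libraries went with a level that was not called different with TMM scaling.

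**Figure D3:**
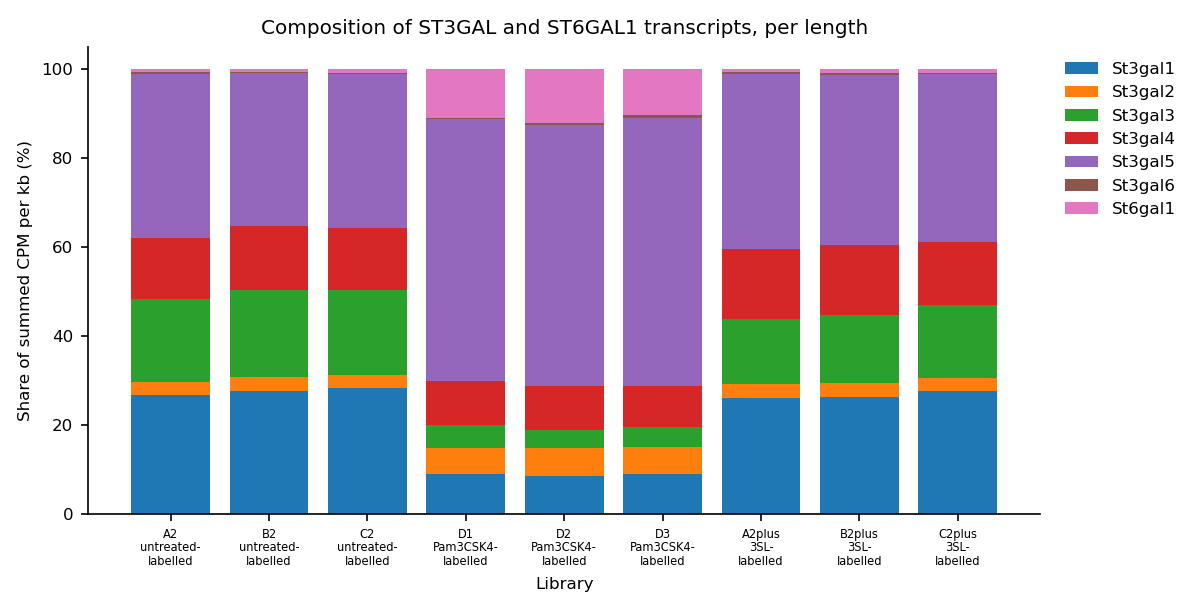
Share (%) of each transcript in the summed CPM per kb of the 6 St3gal genes and St6gal1, 1 bar per library, with merged exon lengths. St6gal1 fills 10.3 to 12.1% of the bar in D1, D2 and D3 and at most 0.758% elsewhere, and St3gal5 fills 58.7 to 60.2% there.

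For the lists of related genes that follow, the background over all tested genes is again 39% called higher and 35.9% lower in the Pam3CSK4-labelled against the untreated-labelled libraries, 34.7 and 36.8% in the 3SL-labelled against the Pam3CSK4-labelled, and 3.83 and 5.11% in the 3SL-labelled against the untreated-labelled. The other 14 sialyltransferase and sialidase genes were mostly at the floor, with 3 of 14 tested, of which 2 were called higher (background 39%) and 1 lower (35.9%) in the Pam3CSK4-labelled than in the untreated-labelled libraries. St6galnac4, which adds sialic acid to already sialylated O-glycans, was at 21.7 ± 1.35 CPM in the untreated-labelled, 60.0 ± 1.32 in the Pam3CSK4-labelled and 20.7 ± 1.16 in the 3SL-labelled libraries, with a log2 change of 1.46 ± 0.0648 in the Pam3CSK4-labelled against the untreated-labelled (edgeR adjusted p = 1.59e-17). St6galnac6, a ganglioside sialyltransferase gene, rose by a log2 change of 0.67 (adjusted p = 5.14e-09). St8sia6 fell from 0.937 ± 0.436 CPM in the untreated-labelled to 0.118 ± 0.12 in the Pam3CSK4-labelled libraries (adjusted p = 0.000215). It was at 0.791 ± 0.486 CPM in the 3SL-labelled. These levels rest on 63, 5 and 20 counts per group, at unequal depth. St8sia6 did not pass the filter on low counts, and so was not tested, when only the 2 groups compared were fitted or the libraries were thinned to equal depth. Against the Pam3CSK4-labelled libraries, the 3SL-labelled were called higher for 1 of the 3 genes and lower for 2. None of the 3 was called between the 3SL-labelled and untreated-labelled libraries.

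Of the genes that make, activate, carry and break down sialic acid, 10 of 11 were tested, and 7 were called higher and 2 lower in the Pam3CSK4-labelled than in the untreated-labelled libraries (median log2 change 0.68; all tested genes 0.03), beside 39% and 35.9% of all tested genes. With scaling by library size alone the list had 10 called higher and 0 lower, and without A2 or without D3 it had 1 called lower. Slc17a5, the lysosomal exporter of free sialic acid, went from 22.9 ± 0.813 to 62.1 ± 4.12 CPM (log2 change 1.44; edgeR adjusted p = 2.32e-17). Cmas, which activates sialic acid to its nucleotide sugar, rose by 0.46 (adjusted p = 1.95e-09). Cmah, which hydroxylates that sugar, rose by 1.52 (adjusted p = 0.00111). Its level was 0.39 ± 0.0775 CPM (28 counts) in the untreated-labelled and 1.21 ± 0.357 CPM (53 counts) in the Pam3CSK4-labelled libraries. Cmah did not pass the low-count filter, and so was not tested, without D2 or without D3. Renbp, a renin-binding protein that acts as an epimerase of N-acetylglucosamine, fell by 0.11 on the log2 scale with TMM scaling (adjusted p = 0.00889) and rose by 0.20 with scaling by library size alone (adjusted p = 2.77e-05). The 3SL-labelled libraries were called higher than the Pam3CSK4-labelled for 1 gene and lower for 7, with Npl, the sialic acid lyase, at -1.34 (adjusted p = 1.16e-10). Renbp was the single gene of this list called between the 3SL-labelled and untreated-labelled libraries, lower by a log2 change of -0.18 (adjusted p = 0.00254).

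All 10 genes of ganglioside synthesis and breakdown were tested, and 6 were called higher and 3 lower in the Pam3CSK4-labelled than in the untreated-labelled libraries (median 0.18), beside 39% and 35.9% of all tested genes. The list had 8 called higher and 1 lower with scaling by library size alone, and 1 called lower without B2 or without D2. Psap, the precursor of the saposins that help lysosomal enzymes reach lipids, rose by a log2 change of 0.36 (edgeR adjusted p = 1.62e-13), and Hexa, a subunit of the hexosaminidase that degrades GM2, by 0.29 (adjusted p = 4.18e-10). No gene of this list changed by 2-fold. In the 3SL-labelled against the Pam3CSK4-labelled libraries 2 were called higher and 6 lower, and against the untreated-labelled 1 of each. The gene called higher there was B4galt6, by a log2 change of 0.22 (adjusted p = 9.45e-05), and its groups did not overlap. The gene called lower there was B4galt5 (adjusted p = 0.0481). Both were named after their values were seen. No gene of the list was called lower there without B2, C2, D3, A2plus, B2plus or C2plus. Of 4 partners and proteases of these enzymes, 2 were called higher (background 39%) and none lower (35.9%) in the Pam3CSK4-labelled than in the untreated-labelled libraries, and all 4 were called higher with scaling by library size alone. The 2 were Ctsa, the protective protein that stabilises NEU1, by a log2 change of 0.10 (adjusted p = 0.00438), and Glb1, the beta-galactosidase of the same lysosomal complex and a member of both lists, by 0.27 (adjusted p = 8.32e-07). The 3SL-labelled libraries were called lower than the Pam3CSK4-labelled for 3 of the 4, and none was called against the untreated-labelled.

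Of the galactose-adding and branching enzymes that build the acceptors of sialic acid, 15 of 16 were tested, and 7 were called higher and 5 lower in the Pam3CSK4-labelled than in the untreated-labelled libraries (median 0.01), near the 39% and 35.9% of all tested genes, and 9 and 3 with scaling by library size alone. Gcnt1, which starts core 2 branches on O-glycans, was at 6.33, 5.44 and 5.51 CPM in the untreated-labelled, 138, 123 and 139 in the Pam3CSK4-labelled and 9.84, 8.03 and 6.30 in the 3SL-labelled libraries. Its Pam3CSK4-labelled libraries stood apart, and the log2 change of 4.55 was a 23.4-fold rise (edgeR adjusted p = 2.03e-26). Mgat5, B4galt4 and C1galt1, which branch N-glycans, add galactose and make core 1, rose by log2 changes of 1.76, 1.81 and 1.05. Mgat4a, a further N-glycan branching gene, fell by 1.64 on the log2 scale, and Gcnt2, a branching gene of lactosamine chains, by 1.42. B4galt1, the main galactosyltransferase, and Mgat2, an N-glycan branching gene, rose by 0.22 (adjusted p = 7.64e-06) and 0.14 (adjusted p = 0.00473). In the 3SL-labelled against the Pam3CSK4-labelled libraries 5 were called higher and 5 lower, and Gcnt1 alone was called against the untreated-labelled, at 0.47 (adjusted p = 0.0374). Those groups overlapped, and Gcnt1 was not called without B2 (adjusted p = 0.243), C2 (0.0563), A2plus (0.243) or B2plus (0.117). It was also not called when only the 2 groups compared were fitted (0.0626) or with thinning to equal depth (0.181). Mgat4a was at -0.16 there and not called (adjusted p = 0.0692). It was called lower without C2plus (-0.25; adjusted p = 0.000887), with no filter on low counts (-0.17; 0.0102) and with the letters as a replicate block (-0.17; 0.0374).

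The 4 carriers of polysialic acid were all tested, and 1 was called higher (background 39%) and 2 lower (35.9%) in the Pam3CSK4-labelled than in the untreated-labelled libraries, or 2 and 2 with scaling by library size alone. Nrp2, a neuropilin that ST8SIA4 modifies, fell from 1568 ± 66.5 to 728 ± 30.6 CPM (log2 change -1.11; edgeR adjusted p = 4.62e-21), and was at 1482 ± 47.7 CPM in the 3SL-labelled libraries. Ccr7, a chemokine receptor gene, fell from 3.98 ± 0.555 to 0.159 ± 0.213 CPM (adjusted p = 6.06e-11), on 266 and 8 counts over the 3 libraries of each group. Cadm1, a cell adhesion gene, rose by a log2 change of 1.22 (adjusted p = 4.2e-19). The 3SL-labelled libraries were called higher than the Pam3CSK4-labelled for 2 of the 4 and lower for 1. None of the 4 was called between the 3SL-labelled and untreated-labelled libraries, where St8sia4 itself was lower.

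**Figure D4:**
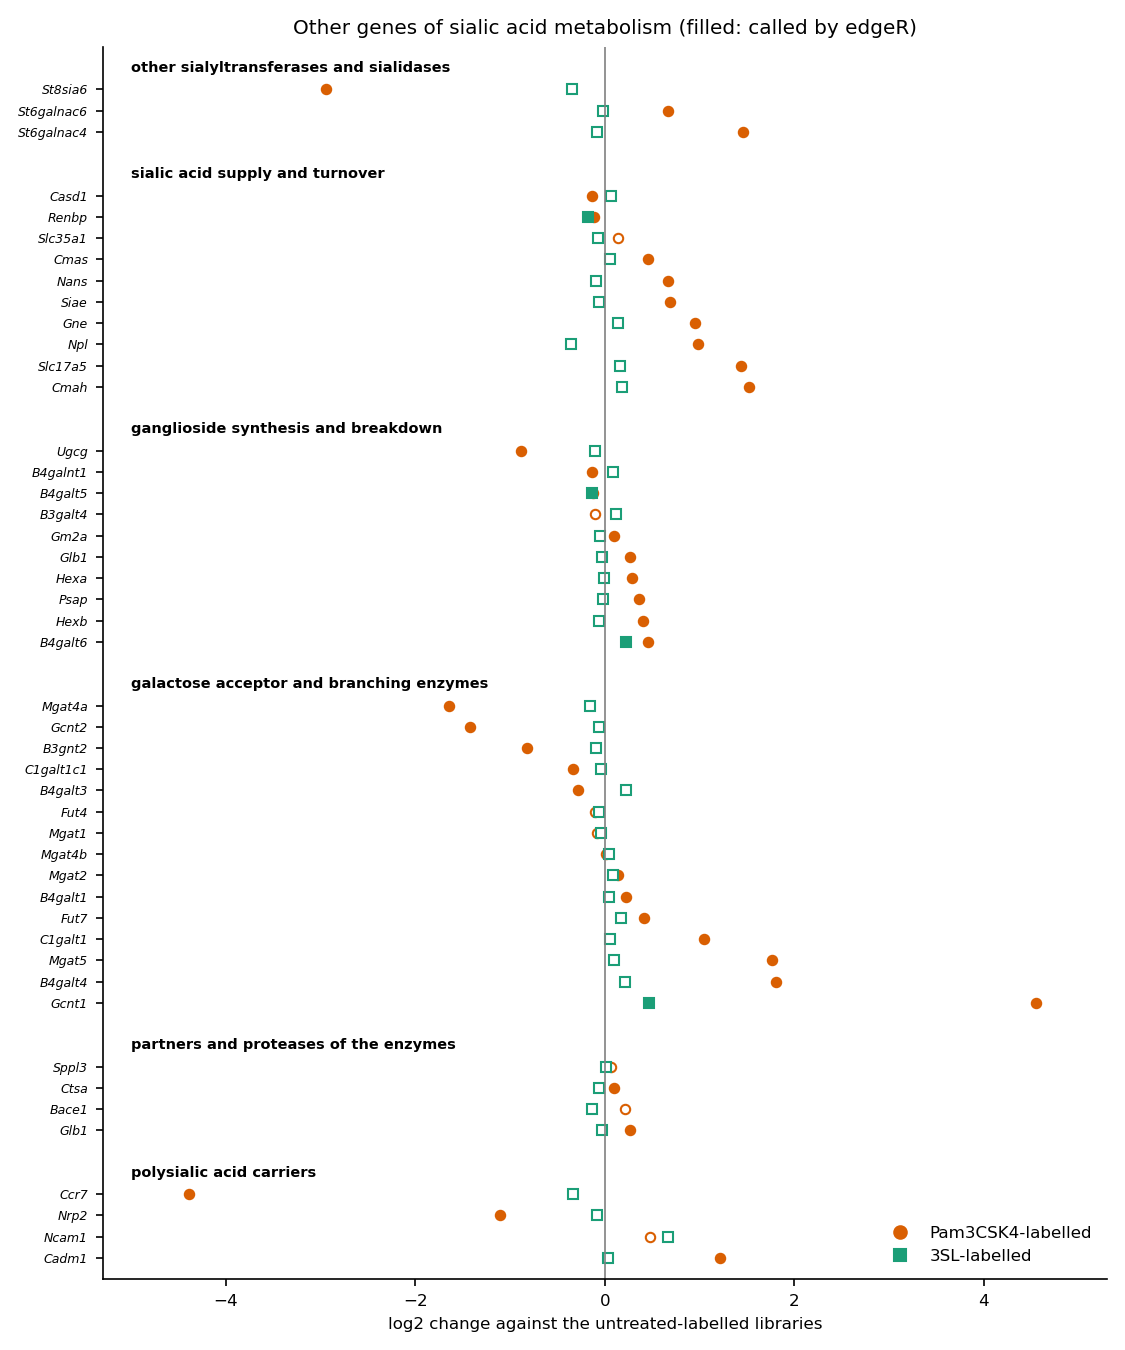
Log2 change against the untreated-labelled libraries (horizontal axis) for each tested gene of 6 lists; circles are the Pam3CSK4-labelled and squares the 3SL-labelled libraries, and filled symbols passed an adjusted p of 0.05 in edgeR. Circles reach from -4.39 (Ccr7) to 4.55 (Gcnt1), while filled squares are few and lie between -0.18 (Renbp) and 0.47 (Gcnt1).

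For the 4 genes with a called change of at least 2-fold, the tested genes with the most similar profile were found by the Euclidean distance of centred log2 CPM over the 9 libraries. Nearest to St3gal1 were Calcrl (0.175), Plaur (0.179) and Agtrap (0.198). Nearest to St3gal3 were Acp5 (0.289), Fam102b (0.36) and Ifi211 (0.383), and nearest to St3gal4 were Spi1 (0.12), Fam214b (0.131) and Ninj1 (0.143). St6gal1 was closest to Hells (0.212), Wee1 (0.231) and Nceh1 (0.245). Hells, for example, was at 9.16, 87.2 and 9.26 CPM in the untreated-labelled, Pam3CSK4-labelled and 3SL-labelled libraries. With 3 groups in the design, these distances mostly compare group means.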

How the data were processed

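Bulk RNA of 9 macrophage libraries was sequenced. The labels' protocols name TRIzol and the NEBNext Ultra RNA kit, and the submitters' processing notes name HISAT2 2.1.0, featureCounts and Subread with build hg38, although the gene identifiers are of mouse, so the build behind the counts is unsettled. The authors deposited raw counts per gene. Columns of 15 other samples were not used.

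Counts were fitted with edgeR 4.0.16 (R 4.3.3): filterByExpr, TMM scaling, 1 quasi-likelihood fit over the 9 libraries, Benjamini-Hochberg adjustment over 11469 of 22001 genes, threshold 0.05. CPM values are TMM-scaled, and SE is the log2 change divided by the root of F. The fit was tested on simulated counts. The 10 genes and the lists were chosen with earlier results of these data known. Named were all 10 genes, list genes called with at least 2-fold change, the 2 list genes of highest mean CPM, and the 3 nearest profiles of each of the 10 genes with a 2-fold called change. Gene positions and lengths come from GENCODE M21 (GRCm38).

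Libraries of 1 group differed by more than counting noise (chi-square per degree of freedom 1.85 to 3.01). Same-letter libraries (A2 and A2plus, and so on) had correlations of -0.02, 0.04 and 0.01 after group means were removed. With 3 libraries per group, these values cannot tell whether a letter marks a shared animal, culture or day. Alternatives were scaling by library size or DESeq2 size factors, no filter, DESeq2 1.42.0, a fit of the 2 groups compared, thinning to 7472482 counts, each library left out, and a replicate block.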

Additional observations from a re-analysis of the deposited data

How the results depend on the processing

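The calls of the 10 genes held in most alternatives: of 459 values, 429 kept direction and side of the threshold, 10 lost the call and 3 gained it. A further 17 changed sign. In 16 of these neither fit made a call (10 of St3gal5, and 2 each of St3gal6, St6gal1 and Neu3). The other was St3gal5 in the Pam3CSK4-labelled against the untreated-labelled libraries, 0.29 (adjusted p = 1.76e-06) with scaling by library size alone, which also turned Renbp from -0.11 to 0.20 there (adjusted p = 2.77e-05). Across alternatives 3 to 5 of the 10 genes were called higher and 3 to 4 lower in that comparison, 3 and 4 to 6 in the 3SL-labelled against the Pam3CSK4-labelled, and 0 and 3 to 4 against the untreated-labelled. Scaling by library size alone moved the counts over all genes: from 4474 higher and 4123 lower to 6882 and 2380, from 3978 and 4226 to 2434 and 6393, and from 439 higher to 788 in the 3SL-labelled against the untreated-labelled. The share of calls that were higher went from 52 to 74.3%, from 48.5 to 27.6% and from 42.8 to 66%, and the median of all genes shifted by 0.31, -0.27 and 0.04. Leaving out each library gave 270 to 435 higher and 356 to 603 lower calls in the last comparison (439 and 586 with all libraries), with 270 and 356 without B2 and 377 lower without A2plus. These fits have fewer samples. With the letters as a replicate block, 0 of the 10 genes were called higher and 4 lower there, and 402 and 549 of all genes, and Mgat4a was then called (-0.17, adjusted p = 0.0374). St8sia6 and Cmah were too low to be tested in some alternatives, thinning among them.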
